A study of Homo sapiens with 6 samples.

Results

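The 7 genes described here encode the transcriptional end of the Hippo pathway: the coactivators YAP1 and WWTR1 (the protein TAZ), the DNA-binding factors TEAD1, TEAD2, TEAD3 and TEAD4, and the cofactor VGLL4. They were chosen by gene symbol and not by a rule on their values, though with earlier results of these data known. All 7 are among the 15832 symbols of the expression table, and all 7 passed the filter for testing. RNA was sequenced from 6 libraries of AsPC-1, an established human pancreatic cancer cell line, taken 48 h after transfection. The groups were siControl (a control siRNA, 3 libraries) and siVCPIP1 (an siRNA against the deubiquitinase VCPIP1, 3 libraries). The sources used here state neither how many siRNAs were used nor if replicate libraries began as separate cultures. The p-values therefore speak of library-to-library spread, possibly technical. The series title ties VCPIP1 to YAP signalling, and the comparison asks how transcripts of the YAP machinery differ when VCPIP1 is targeted.

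In the Hippo pathway a kinase cascade phosphorylates YAP and TAZ, which keeps them in the cytoplasm and marks them for degradation. Unphosphorylated YAP and TAZ enter the nucleus, where they have no DNA-binding domain of their own and bind to TEAD factors on enhancers and promoters of growth genes. VGLL4 binds TEAD factors through its Tondu motifs, competes with YAP and TAZ and represses the same genes. This regulation acts largely on protein, so transcript levels describe the supply of each component and not its activity.

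The 4 TEAD proteins share a DNA-binding TEA domain, and a stretch of it shows how alike their products and how unlike their transcripts are. The longest run of codons that encodes the same residues in all 4 genes was 70 codons (210 bases, spread over 3 exons in each gene). It is shown because base composition differs between these paralogs, and changes over all tested genes were graded by GC content, as described further on. Sequences are the coding strand of GENCODE 29 transcripts, 5′ to 3′, and capitals mark a G or C at the third position of a codon. The stretch lies on GRCh38 at chr11:12764320-12864867 (plus strand) in TEAD1, chr19:49357285-49359958 (minus strand) in TEAD2, chr6:35480345-35486575 (minus strand) in TEAD3 and chr12:2994878-3012199 (plus strand) in TEAD4, introns included.
TEAD1: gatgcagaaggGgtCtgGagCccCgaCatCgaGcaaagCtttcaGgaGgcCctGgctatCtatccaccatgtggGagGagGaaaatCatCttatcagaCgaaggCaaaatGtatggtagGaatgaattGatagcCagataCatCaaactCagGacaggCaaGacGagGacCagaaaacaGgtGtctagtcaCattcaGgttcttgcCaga
TEAD2: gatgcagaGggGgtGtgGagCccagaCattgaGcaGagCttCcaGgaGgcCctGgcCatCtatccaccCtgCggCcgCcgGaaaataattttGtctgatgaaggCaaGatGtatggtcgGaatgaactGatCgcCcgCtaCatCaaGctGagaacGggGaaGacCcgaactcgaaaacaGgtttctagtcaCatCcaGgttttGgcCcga
TEAD3: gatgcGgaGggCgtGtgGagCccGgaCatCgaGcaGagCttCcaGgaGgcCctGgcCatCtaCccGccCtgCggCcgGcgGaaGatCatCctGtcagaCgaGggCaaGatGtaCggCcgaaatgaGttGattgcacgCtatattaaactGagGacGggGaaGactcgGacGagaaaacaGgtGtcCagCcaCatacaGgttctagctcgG
TEAD4: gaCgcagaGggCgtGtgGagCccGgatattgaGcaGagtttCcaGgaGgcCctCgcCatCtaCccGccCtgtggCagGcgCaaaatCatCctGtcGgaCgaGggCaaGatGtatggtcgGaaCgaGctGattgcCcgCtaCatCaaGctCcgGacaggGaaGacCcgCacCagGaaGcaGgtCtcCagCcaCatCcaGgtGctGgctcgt

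Within these 70 codons the third position was G or C in 39 codons of TEAD1, 44 of TEAD2, 54 of TEAD3 and 58 of TEAD4. TEAD1 and TEAD4 differed at 47 of the 210 bases, 39 of them at the third position of a codon. TEAD3 and TEAD4, the closest pair, differed at 33. Over the whole transcript, GC content was 40.8% for TEAD1, 57.8% for TEAD2, 59.8% for TEAD3 and 60.4% for TEAD4. YAP1 and WWTR1, at 43.4% and 40.9%, have long transcripts (5386 and 5030 nt) that are mostly 3′ untranslated region (3486 and 3573 nt, with a GC content of 34.8% and 34.9%). VGLL4 lies between, with a GC content of 52.1% over 3725 nt. These values are for 1 transcript per gene. Over basic coding transcripts, GC content ranged from 40.9% to 57.1% for WWTR1, 43.4% to 57.2% for YAP1, 51.6% to 65.5% for VGLL4 and 40.8% to 48.3% for TEAD1, and was narrower for TEAD2, TEAD3 and TEAD4.

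The genes lie on 5 chromosomes. On GRCh38 (GENCODE 29) YAP1 spans chr11:102110461-102233423 on the plus strand (9 exons in the transcript used), and TEAD1 the same strand of the same chromosome at chr11:12674591-12944483 (12 exons). WWTR1 (chr3:149517235-149736714, 8 exons) and VGLL4 (chr3:11556070-11771350, 6 exons) share chromosome 3, both on the minus strand. TEAD2 lies at chr19:49340595-49362457 (minus strand, 12 exons), TEAD3 at chr6:35473597-35497076 (minus strand, 13 exons) and TEAD4 at chr12:2959330-3040673 (plus strand, 13 exons).

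The groups differed across the whole table, which bears on every value that follows. TPM is a share of the transcripts of a library, so the TPM of a gene depends on all other genes. Median TPM was 6.18 to 7.44 in the siControl libraries and 1.24 to 2.26 in the siVCPIP1 libraries. Of 10966 genes tested, 66.0% were called lower and 15.0% higher in siVCPIP1 (limma, adjusted p under 0.05), and the median log2 fold change was -1.12. The change was graded by GC content, with a median of -2.24 in the tenth of genes with the lowest GC content and 0.47 in the tenth with the highest. Changes are therefore also given after median-of-ratios scaling, which aligns the typical gene between libraries, after quantile normalization, which gives all libraries the same distribution of values, and after removal of the trend with GC content and length from each library. The targeted gene VCPIP1 was at 2.24 to 3.06 TPM in siControl and 0.11 to 0.27 TPM in siVCPIP1. Its log2 fold change was -1.68 (limma, adjusted p = 2.0e-05) with the pseudocount of 1 TPM and -3.45 with 0.1 TPM. With the GC and length trend removed it was 0.27 (adjusted p = 0.065) and -0.55 (adjusted p = 0.016) with these pseudocounts. All 6 epithelial markers were found: the keratins KRT8, KRT18 and KRT19 averaged 5495, 4923 and 4229 TPM in siControl and were higher in siVCPIP1, while EPCAM and CDH1 went from 171.9 to 5.96 and from 28.9 to 0.677 TPM. The 5 fibroblast markers found summed to 45.3 to 69.0 TPM in siControl and 1.5 to 4.51 TPM in siVCPIP1. Nearly all of that was LUM (56.0 and 2.01 TPM on average), and COL1A2 and DCN were under 0.1 TPM in every library. The immune marker PTPRC was under 1 TPM in every library and CD68 was at 144.8 and 139.7 TPM on average. The part of these differences in the results below was not tested.

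In siControl cells TEAD4 was by far the most abundant of the 7 transcripts. Its TPM was 139.6, 127.0 and 137.6 in the 3 libraries, a mean of 134.7 ± 6.80 (SD, n = 3). YAP1 followed at 32.0 ± 4.64 TPM, and its lowest library lay above the highest library of every gene ranked after it. TEAD2 (17.1 ± 2.19), WWTR1 (16.4 ± 1.96), TEAD3 (14.4 ± 0.985) and VGLL4 (12.15 ± 2.32) came next (TPM, SD, n = 3), and the ranges of neighbours in that order overlapped. TEAD2 exceeded WWTR1 in 1 of 3 libraries, so their order is not resolved. TEAD1 was the lowest, at 6.90 ± 1.91 TPM, below VGLL4 in 3 of 3 libraries. In siVCPIP1 the order was TEAD4, TEAD2, TEAD3, WWTR1, VGLL4, YAP1 and TEAD1. There TEAD4 stood 12.3-fold above TEAD2 in means, and VGLL4 and YAP1 (2.43 and 2.37 TPM on average) were not resolved, since VGLL4 was the higher in 1 of 3 libraries.

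**Figure D1:**
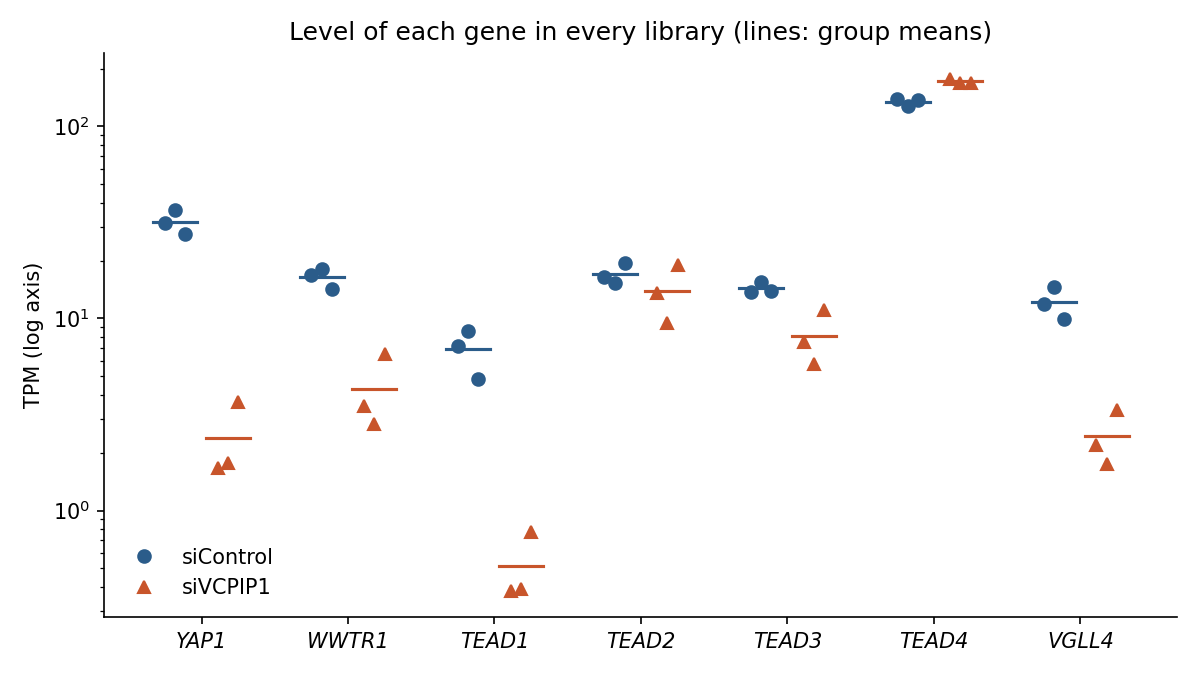
TPM (log axis) of the 7 genes in each library, with siControl as blue circles, siVCPIP1 as orange triangles and a line at each group mean (n = 3). TEAD4 is the highest gene in both groups, YAP1 and TEAD1 show the widest gaps between groups, and the groups overlap only for TEAD2.

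Both coactivators fell in siVCPIP1 with TPM as deposited, YAP1 further than WWTR1, whose direction changed in 2 of the 3 forms of the correction for GC content and length. YAP1 was at 31.5, 36.8 and 27.6 TPM in siControl and at 1.67, 1.76 and 3.69 TPM in siVCPIP1, so the groups did not overlap. It kept 7.43% of its siControl mean (log2 fold change -3.33, SE 0.26, limma, adjusted p = 2.0e-05). WWTR1, whose product TAZ binds the same TEAD surface, was at 16.8, 18.1 and 14.3 TPM in siControl and at 3.50, 2.81 and 6.56 TPM in siVCPIP1. These groups were also separate, and WWTR1 kept 26.1% of its mean (log2 fold change -1.78, SE 0.27, limma, adjusted p = 0.00030). In bulk RNA, less transcript per cell and fewer cells with the transcript cannot be told apart.

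The TEAD genes did not move together with TPM as deposited. TEAD1 moved from 7.22, 8.63 and 4.85 TPM to 0.38, 0.39 and 0.77 TPM, which left 7.44% of its mean (log2 fold change -2.36, SE 0.22, limma, adjusted p = 2.2e-05). With values under 1 TPM in all siVCPIP1 libraries, the pseudocount of 1 TPM understates this fall, and with a pseudocount of 0.1 TPM it was -3.53. TEAD3 had 13.8, 15.5 and 13.8 TPM in siControl and 7.57, 5.77 and 11.1 TPM in siVCPIP1 (-0.79 on the log2 scale, SE 0.24, adjusted p = 0.013, but above 0 after both scalings described further on). The TEAD3 groups did not overlap, but the call was lost without siControl replicate 2 (-0.74, adjusted p = 0.055). TEAD2 had 16.5, 15.2 and 19.5 TPM in siControl and 13.5, 9.46 and 19.0 TPM in siVCPIP1. Its groups overlapped and it was not called (-0.31, SE 0.25, adjusted p = 0.27), although without siVCPIP1 replicate 3, the library with its highest value in that group, it was called lower (-0.55, adjusted p = 0.0032).

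With TPM as deposited TEAD4 alone of the 7 was called higher. TEAD2 joined it after median-of-ratios scaling and TEAD2 and TEAD3 after quantile normalization, whereas WWTR1 and not TEAD4 was called higher after correction for GC content and length. TEAD4 was at 177.3, 169.1 and 168.6 TPM in siVCPIP1, each above the highest siControl library, for a mean of 171.7 ± 4.84 (SD, n = 3). The rise was 1.27-fold in means (127.4% of siControl; log2 fold change 0.35, SE 0.12, limma, adjusted p = 0.020). This call rests on few libraries: the adjusted p was 0.091 without siControl replicate 2, 0.11 without siVCPIP1 replicate 1 and 0.059 without siVCPIP1 replicate 2, with changes of 0.31, 0.33 and 0.36.

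VGLL4, the antagonist, fell as the coactivators did. It was at 11.9, 14.6 and 9.95 TPM in siControl and at 2.20, 1.75 and 3.34 TPM in siVCPIP1, and it kept 20.0% of its mean (log2 fold change -1.95, SE 0.24, limma, adjusted p = 7.5e-05). The groups did not overlap. Of its relatives fixed in the lists, VGLL3 was under 0.1 TPM in every library and was not tested. VGLL1 and VGLL2 were not among the symbols of the expression table used here.

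Counted over the 7 genes, 5 were called lower and 1 higher, against 66.0% and 15.0% of all genes tested. The same 6 genes had groups that did not overlap, 5 with lower and 1 with higher TPM in siVCPIP1, against 67.9% and 18.2% of all genes. These shares are near the background, so the counts are not a result about these genes. The spread among them is wide, from -3.33 to 0.35, where the median of all tested genes was -1.12. Tested genes kept a median of 39.1% of their siControl mean, and YAP1, TEAD1, VGLL4 and WWTR1 lay below that share, while TEAD3 (56.7%), TEAD2 (81.9%) and TEAD4 lay above it.

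Because any scaling of a whole library cancels within it, shares between paralogs were compared next. TEAD4 made up 78.8%, 76.3% and 78.3% of the summed TEAD TPM in the siControl libraries and 89.2%, 91.5% and 84.5% in the siVCPIP1 libraries. Its mean share was 77.8% ± 1.31 and 88.4% ± 3.56 (SD, n = 3 each), a difference of 10.6 percentage points (two-sided exact permutation p = 0.1, the smallest that 3 against 3 libraries allow, adjusted p = 0.1 over 4 quantities). The groups did not overlap in this share. The share of TEAD1 went from 4.01% ± 1.22 to 0.263% ± 0.11, that of TEAD3 from 8.32% ± 0.868 to 4.16% ± 1.25 and that of TEAD2 from 9.86% ± 1.07 to 7.14% ± 2.22 (SD, n = 3 each). The summed TEAD TPM was 173.1 ± 5.89 in siControl and 194.3 ± 8.29 in siVCPIP1, and without TEAD4 it was 38.3 ± 0.932 and 22.6 ± 7.67. After quantile normalization the TEAD4 share was lower by 1.65 percentage points (a change of -1.65, exact permutation p = 0.3), so its direction depends on that choice. With that normalization TEAD2, TEAD3 and TEAD4 changed by 0.97, 0.65 and 0.52 on the log2 scale, and TEAD1 by -0.90.

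Between the coactivators the order was inverted with TPM as deposited. YAP1 supplied 65.2%, 67.0% and 65.9% of YAP1 plus WWTR1 TPM in siControl, and 32.3%, 38.5% and 36.0% in siVCPIP1. The mean share was 66.03% ± 0.903 and 35.6% ± 3.12 (SD, n = 3 each; change -30.4 percentage points, exact permutation p = 0.1, adjusted p = 0.1 over 4 quantities). YAP1 was thus the more abundant coactivator transcript in 3 of 3 siControl libraries and WWTR1 in 3 of 3 siVCPIP1 libraries. Quantile normalization gave a change of -32.0 percentage points. The share was not recomputed with correction for GC content and length. With that correction the YAP1 minus WWTR1 change on the log2 scale was -1.74 with 1 transcript per gene. It was -0.54 with the median GC content and length over basic coding transcripts. Whether the order is inverted after that correction was not tested.

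**Figure D2:**
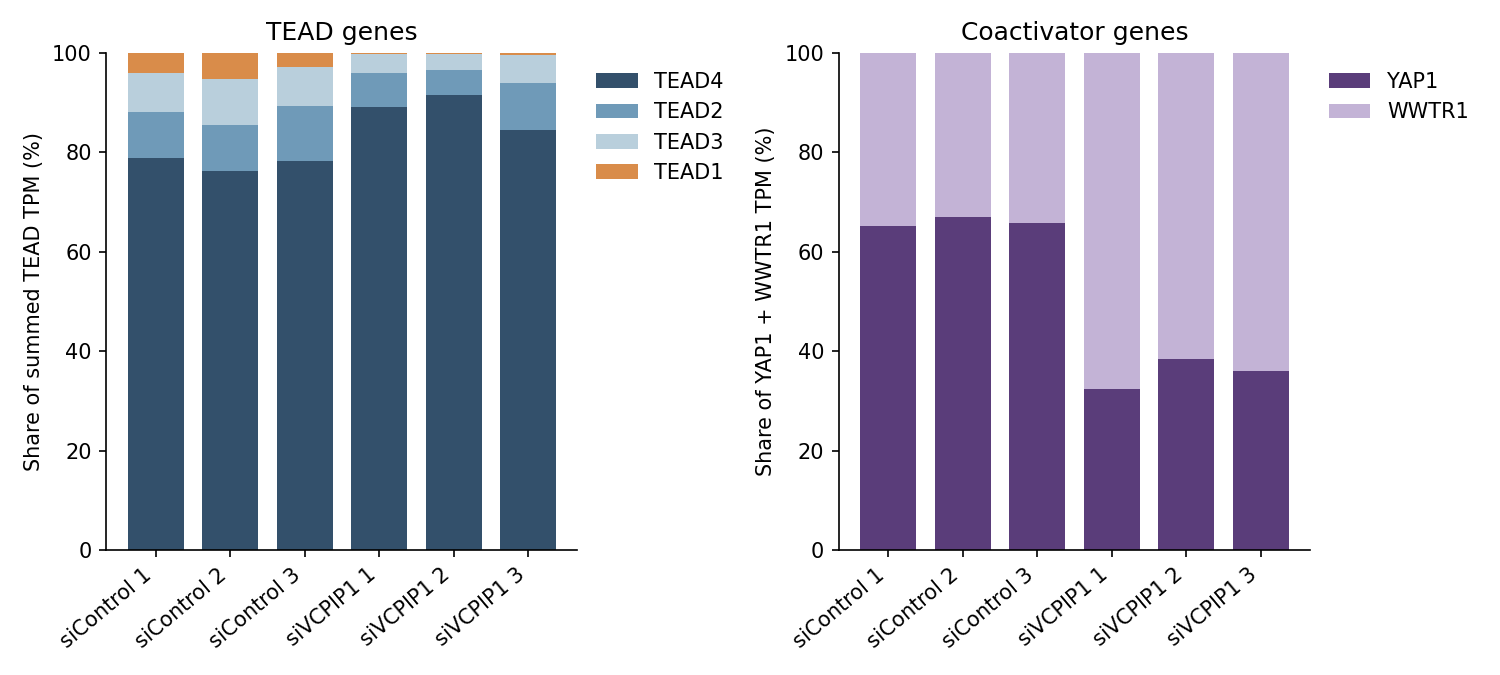
Stacked bars of each library's TPM shared among the 4 TEAD genes (left, percent of their sum) and between YAP1 and WWTR1 (right, percent of their sum). TEAD4 takes 76.3% to 78.8% of TEAD TPM in siControl and 84.5% to 91.5% in siVCPIP1, and YAP1 passes from 65.2% to 67.0% of the coactivator sum to 32.3% to 38.5%.

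Coactivator TPM relative to TEAD TPM fell as well. Summed YAP1 and WWTR1 TPM was 48.4 ± 6.55 in siControl and 6.66 ± 3.12 in siVCPIP1. Per unit of TEAD TPM that was 0.273, 0.330 and 0.238 in siControl and 0.0260, 0.0247 and 0.0514 in siVCPIP1. The ratio changed by -3.11 on the log2 scale (exact permutation p = 0.1, adjusted p = 0.1 over 4 quantities), and by -1.89 with quantile-normalized values. With TPM as deposited, VGLL4 per coactivator TPM moved the other way. VGLL4 kept 20.0% of its siControl mean, the sum of YAP1 and WWTR1 13.8%, and WWTR1 alone 26.1%. The ratio was 0.247, 0.265 and 0.238 in siControl and 0.426, 0.383 and 0.326 in siVCPIP1. That is a change of 0.59 on the log2 scale (exact permutation p = 0.1, adjusted p = 0.1 over 4 quantities), or 0.93 with quantile-normalized values. Per TEAD TPM, VGLL4 went from 0.0705 ± 0.016 to 0.0124 ± 0.0038 (SD, n = 3 each). Shares and ratios were not recomputed with GC content and length corrected for. With that correction and 1 transcript per gene, VGLL4 lay at -0.78, above YAP1 at -1.38 and below WWTR1 at 0.35. With the median GC content and length over basic coding transcripts, VGLL4 lay at -2.03, below YAP1 at -1.47 and WWTR1 at -0.93. Tested genes with a GC content near that of YAP1 and of WWTR1 had median log2 fold changes of -2.05 and -2.18. Near that of VGLL4 the median was -0.93, and near that of TEAD4, the main part of TEAD TPM, it was 0.21. The part of GC content in these ratios was not tested.

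Whether paralogs changed by different amounts was tested for 7 pairs, on the difference between their log2(TPM + 1) values within each library. The 2 groups did not overlap in any of the 7 pairs, and each gave the smallest exact permutation p, 0.1 (adjusted p = 0.1 over the pairs). Among single tested genes, 67.9% had groups that did not overlap with lower and 18.2% with higher TPM in siVCPIP1. The share over all pairs of genes was not computed, so the count of 7 is not a result about paralogs. The YAP1 minus WWTR1 difference went from 0.92 ± 0.06 to -0.64 ± 0.15 (SD, n = 3 each), a change of -1.55. Among the TEAD genes, TEAD1 lost most against each of the others: by -2.71 against TEAD4, -2.05 against TEAD2 and -1.58 against TEAD3. TEAD3 lost against TEAD4 by -1.14 and TEAD2 against TEAD4 by -0.66, while TEAD2 gained 0.47 on TEAD3. With the pseudocount of 1 TPM, correction for GC content and length ended the separation of TEAD1 from the others. The change was 0.13 against TEAD2, 0.61 against TEAD3 and -0.08 against TEAD4 (exact permutation p = 0.6, 0.2 and 0.6). This correction also ended the separation of TEAD2 from TEAD4 (-0.22, exact permutation p = 0.5). TEAD3 still lost against TEAD4 (-0.69) and TEAD2 gained on TEAD3 (0.48), both at the smallest p of 0.1. TEAD1 was under 1 TPM in siVCPIP1, so the pseudocount matters here. Corrected with 0.1 TPM, TEAD1 lay at -0.52, TEAD2 at -0.14, TEAD3 at -0.66 and TEAD4 at 0.05, and the pairs were not tested. Quantile normalization turned TEAD2 against TEAD4 to 0.45 and TEAD3 against TEAD4 to 0.13.

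Ranks within a library are not affected by its scaling and give a second view of the level of each gene. YAP1 stood at the 75.1 to 78.3 percentile of the 15832 genes in siControl and at the 53.7 to 56.6 percentile in siVCPIP1. TEAD1 moved from the 46.1 to 52.6 percentile down to the 33.8 to 35.6 percentile. VGLL4 moved less, from 57.8 to 62.1 down to 54.5 to 57.2, and WWTR1 overlapped between the groups (64.0 to 66.1 and 60.3 to 64.1). TEAD2, TEAD3 and TEAD4 stood higher in siVCPIP1: TEAD2 at 73.7 to 76.8 against 62.8 to 69.2, TEAD3 at 68.5 to 71.1 against 62.6 to 63.5, and TEAD4 at 94.9 to 95.3 against 92.7 to 93.5. TEAD3 thus had lower TPM and a higher place among genes in the same libraries.

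**Figure D3:**
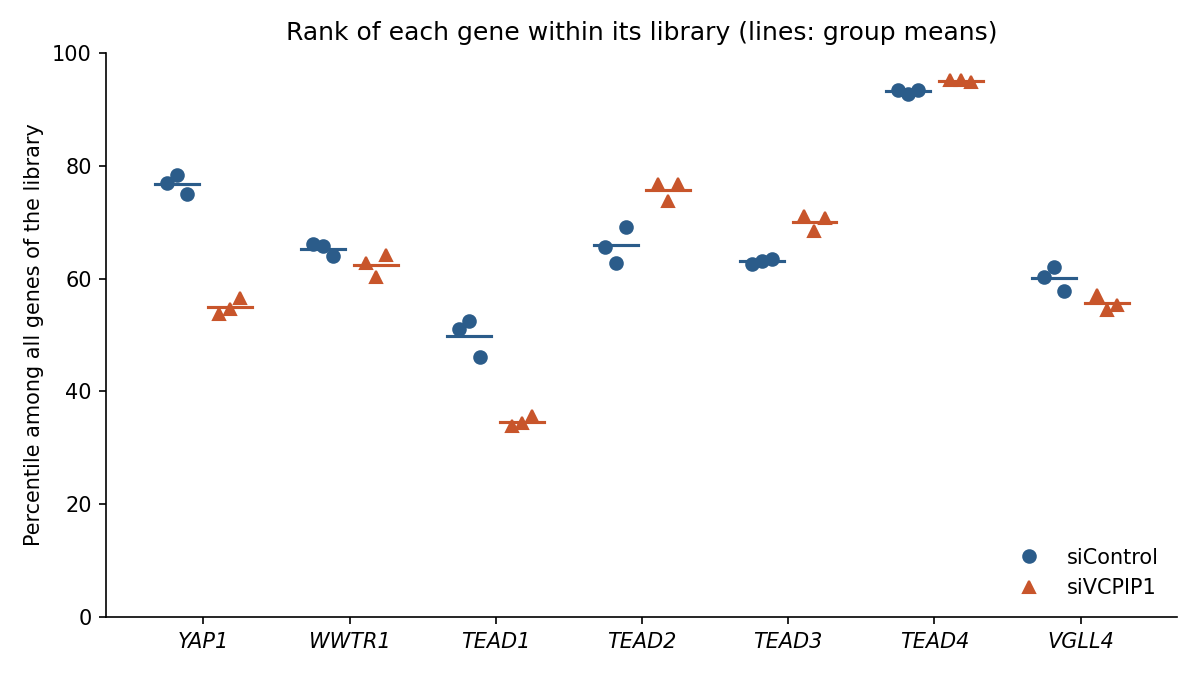
Percentile of each gene among all genes of its library, with siControl as blue circles, siVCPIP1 as orange triangles and a line at each group mean (n = 3). YAP1 drops from a mean of 76.8 to 54.9 and TEAD1 from 49.9 to 34.6, TEAD2 and TEAD3 climb, and WWTR1 overlaps between the groups.

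Calls for the 7 genes depended on how libraries were put on 1 scale. Scaling by median of ratios gave 4 lower (YAP1, WWTR1, TEAD1 and VGLL4) and 2 higher (TEAD2 and TEAD4), while 45.1% of tested genes were lower and 40.3% higher. TEAD4 was then higher by 1.57 and TEAD2 by 0.84, while TEAD3 lay at 0.33 and was not called (limma, adjusted p = 0.057). Quantile normalization gave 3 lower (YAP1, TEAD1 and VGLL4) and 3 higher (TEAD2, TEAD3 and TEAD4), against 38.8% and 42.2% of all genes. WWTR1 was not called there (-0.26, adjusted p = 0.11), and TEAD3 was higher by 0.65. These scalings moved the median of all genes from -1.12 to -0.14 and 0.04, beside which YAP1 lay at -2.30 and -2.0.

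**Figure D4:**
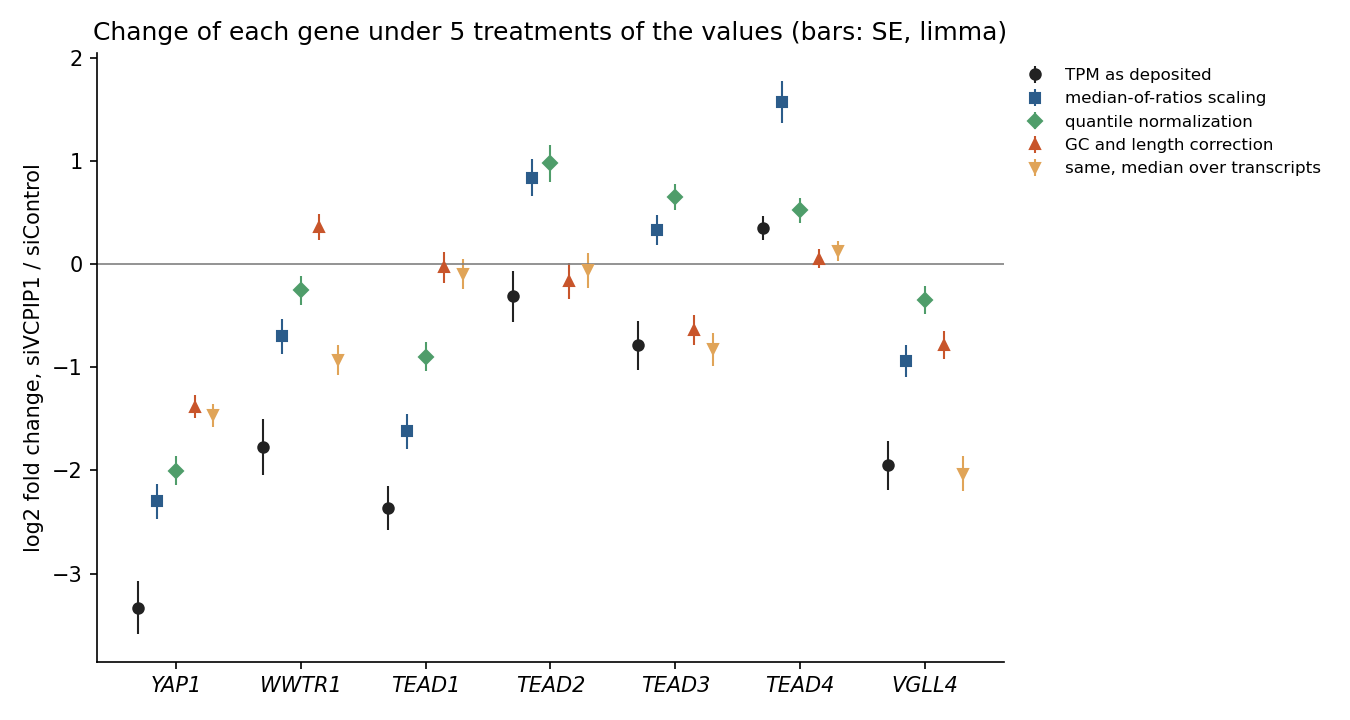
Log2 fold change of siVCPIP1 over siControl for each gene with TPM as deposited, after 2 scalings and after correction for GC content and length with 2 choices of transcript (bars are limma SE). YAP1 and VGLL4 stay below 0 throughout, though VGLL4 moves from -0.78 to -2.03 with the choice of transcript, TEAD2 and TEAD3 cross 0 with scaling, and WWTR1 crosses 0 with the choice of transcript.

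GC content was set beside each gene by placing all tested genes in 10 bins of equal size. TEAD1 and WWTR1 fell in the same bin, with a median change of -2.18 over all its genes, and lay at -2.36 and -1.78. YAP1, in the next bin (median -2.05, middle 50% from -2.66 to -1.47), lay at -3.33, below that range. VGLL4 at -1.95 was below the range of its bin as well (median -0.93, from -1.58 to -0.30). These places are for 1 transcript per gene. Over basic coding transcripts WWTR1 had a median GC content of 53.5%. The VGLL4 bin holds that value, and there WWTR1 at -1.78 would lie below the range. TEAD3 and TEAD4 share a bin with a median of 0.21 (from -0.33 to 0.64), and lay at -0.79 and 0.35. TEAD2 at -0.31 was within its bin (median -0.12). By GC content at the third position of the shared codons, the TEAD genes ran TEAD1, TEAD2, TEAD3, TEAD4. Their changes with TPM as deposited ran in that order, except that TEAD2 and TEAD3 were exchanged. After quantile normalization the changes ran TEAD1 (-0.90), TEAD4 (0.52), TEAD3 (0.65) and TEAD2 (0.97). The part of codon GC content in these changes was not tested.

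**Figure D5:**
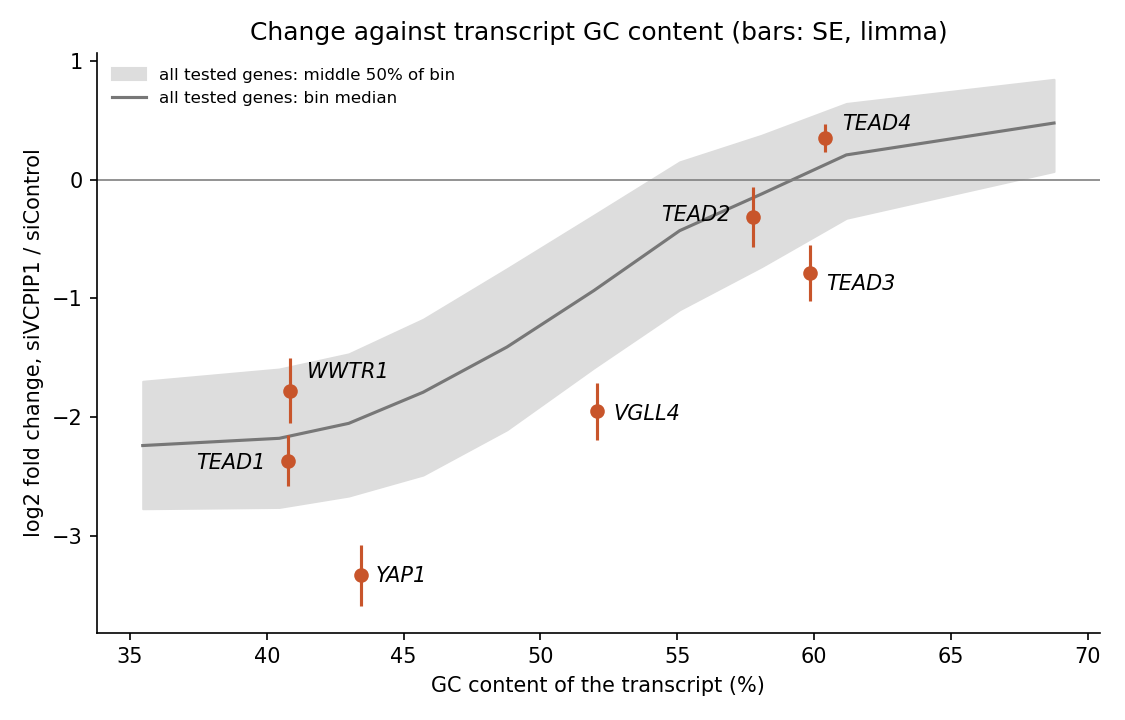
Log2 fold change of the 7 genes (orange, bars are limma SE) against GC content of the transcript used, with the median (line) and middle 50% (band) of all tested genes in 10 bins of GC content. YAP1, VGLL4 and TEAD3 lie below the band, and the other 4 genes lie within it. The place of WWTR1 depends on the transcript that stands for it.

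With the GC and length trend of each library removed, 3 of the 7 were called lower (YAP1, TEAD3 and VGLL4) and 1 higher (WWTR1), against 31.7% and 37.2% of all genes. YAP1 remained the furthest below 0, at -1.38 (SE 0.11, limma, adjusted p = 6.2e-05), followed by VGLL4 at -0.78 (SE 0.13, adjusted p = 0.0012) and TEAD3 at -0.64 (SE 0.15, adjusted p = 0.0046). This order holds for 1 transcript per gene: with the median GC content and length over basic coding transcripts, VGLL4 lay at -2.03 and YAP1 at -1.47. TEAD1 and TEAD4 were no longer called, at -0.03 (adjusted p = 0.86) and 0.05 (adjusted p = 0.63). TEAD1 was again called lower with this correction and a pseudocount of 0.1 TPM (-0.52, adjusted p = 0.033). WWTR1 changed sign with the transcript that stood for it: 0.35 (adjusted p = 0.035) with 1 transcript per gene, and -0.93 (adjusted p = 0.00079) with that median over transcripts. With 1 transcript and a pseudocount of 0.1 TPM it was 0.91 (adjusted p = 0.00060). The YAP1 minus WWTR1 change was -1.74 with 1 transcript per gene and -0.54 with the median over transcripts (exact permutation p = 0.1 for both). Which WWTR1 transcripts were present in these cells was not tested.

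Within siVCPIP1, replicate 3 held the highest value of 6 of the 7 genes. Relative to the mean of replicates 1 and 2 it was 2.15-fold for YAP1, 2.08-fold for WWTR1, 2.0-fold for TEAD1, 1.69-fold for VGLL4, 1.66-fold for TEAD3 and 1.65-fold for TEAD2. TEAD4 was at 0.974-fold. The median over tested genes was 1.55-fold, and that library also had the highest median TPM of its group. Without it, YAP1 lay at -3.59, WWTR1 at -2.07 and VGLL4 at -2.13, so the falls did not rest on it.

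The rest of the pathway was read from lists, in order of role. The shares of all tested genes to set beside the counts of each list are 66.0% lower and 15.0% higher as deposited, 45.1% and 40.3% scaled by median of ratios, 38.8% and 42.2% with quantile-normalized values, and 31.7% and 37.2% with the GC and length trend removed. Of 21 tested upstream kinases and adaptors of the Hippo core, 19 fell and 0 rose (all genes: 66.0% and 15.0%), with a median of -1.81 against -1.12 for all genes. The falls included the adaptors MOB1A (36.1 ± 6.10 to 3.09 ± 1.96 TPM) and SAV1 (12.1 ± 2.55 to 0.693 ± 0.40 TPM) and the kinases MAP4K3 (8.24 ± 1.43 to 0.390 ± 0.27 TPM) and STK3 (13.4 ± 2.46 to 1.62 ± 0.92 TPM). NF2, the scaffold that activates LATS kinases at the membrane, was not called (26.5 ± 1.79 and 19.6 ± 4.70 TPM, limma, adjusted p = 0.065). The kinase TAOK2 was not called either (18.5 ± 2.37 and 16.7 ± 2.92 TPM, limma, adjusted p = 0.49). Scaled by median of ratios, 17 were lower and 4 higher. With quantile-normalized values the counts were 15 and 3, and with GC content and length corrected for they were 6 and 6. NF2 was called higher in all 3 of these, and TAOK2 with both scalings but not with the correction.

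Of 11 tested genes listed for the binding or retention of YAP and TAZ, 10 fell and 1 rose (all genes: 66.0% and 15.0%), with a median of -2.30. The 14-3-3 genes YWHAH and YWHAG, whose products bind phosphorylated YAP, had log2 fold changes of -3.78 and -3.52, and YWHAQ (14-3-3 theta) and CTNNA1 (an adherens junction protein) of -2.94 and -2.98. SFN (14-3-3 sigma) was the exception: its mean moved from 421.2 ± 73.1 to 772.2 ± 67.1 TPM (0.88 on the log2 scale, SE 0.15, adjusted p = 0.00056). It was called higher with both scalings and with the GC and length trend removed, where YWHAB and YWHAE were called higher too. The whole list had 8 lower and 1 higher when scaled by median of ratios, 10 and 1 with quantile-normalized values, and 8 and 3 with the GC and length trend removed.

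Of 10 tested genes for the turnover of YAP and TAZ, 8 fell and 1 rose, near the shares over all genes (66.0% and 15.0%), with a median of -1.74. FBXW11, a substrate receptor of the SCF ubiquitin ligase, lay at -2.69 and the deubiquitinase YOD1 at -2.34 on the log2 scale, while the deubiquitinase OTUB1 rose by 0.78 (154.2 ± 15.1 to 265.1 ± 18.4 TPM). Scaled by median of ratios, 6 were lower and 2 higher, with quantile-normalized values 5 and 2, and with the GC and length trend removed 2 and 4. Of 3 enzymes that add or remove the palmitate on TEAD proteins, ZDHHC7, a palmitoyltransferase, fell (34.7 ± 4.23 to 8.19 ± 4.28 TPM), and the depalmitoylases ABHD17A and LYPLA2 were not called (log2 fold changes 0.09 and 0.05). Both of these were called higher with either scaling and lower with the GC and length trend removed.

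Downstream, 18 of 19 tested YAP/TAZ-TEAD target genes fell and 0 rose (all genes: 66.0% and 15.0%), a count known from earlier work on these data, with NUAK2 not called as deposited and higher with either scaling. In the same libraries the sum over the 20 listed targets was 765.6 to 920.7 TPM in siControl and 106.5 to 178.3 TPM in siVCPIP1. The median change of the targets was -2.70, against -1.12 for all genes. Scaled by median of ratios, 15 targets were lower and 1 higher, with quantile-normalized values 14 and 3, and with the GC and length trend removed 16 and 1. AMOTL2, LATS2 and PTPN14 stand both on this list and among the regulators.

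The 3 profiles nearest to each of 4 genes over the 6 libraries, by distance between centred log2(TPM + 1) values, were sought among genes averaging 5 TPM or more. FUT8, SNX14 and TAB2 lay nearest to YAP1 (distances 0.089, 0.098 and 0.10), and KMT5A, DUSP7 and ING1 nearest to WWTR1 (0.11, 0.15 and 0.15). ERLIN2, ECT2 and FKBP5 lay nearest to TEAD1 (0.11, 0.13 and 0.17), and TCTA, PPP2R5B and TMEM214 nearest to TEAD4 (0.077, 0.094 and 0.094). With 6 libraries in 2 groups such likeness is common: of 7735 genes compared with YAP1, 49.8% had r above 0.95 across the 6 libraries, and 54.1% did so with WWTR1. For TEAD4 the share was 8.49%.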

How the data were processed

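Gene expression was measured by RNA sequencing of total RNA from Trizol lysates of AsPC-1 cells, in 3 siControl and 3 siVCPIP1 libraries. The authors deposited TPM per gene symbol, with 2 decimals. The build, per the submitters' processing notes, was GRCh38.p13. The identity of the aligner, counting tool and annotation, and the strand setting, is not given in the sources used here. Since TPM carries no read numbers, depth is unknown and there are no counting intervals. All 6 columns were matched to samples by name, and no 2 libraries held identical values.

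The test covered 10966 genes whose mean was 1 TPM or more, on log2(TPM + 1) computed from the deposited TPM. It used limma 3.58.1 (R 4.3.3; trended eBayes, group only, two-sided, Benjamini-Hochberg over all genes, threshold 0.05). A log2 fold change on this scale understates changes of low genes. Shares, ratios and paralog differences were tested with exact permutation (scipy 1.17.1). With 3 libraries against 3 no p below 0.1 can be reached. GC content, length and coding sequence came from 1 transcript per gene of GENCODE 29 (APPRIS principal, then longest), which may not be the authors' annotation; 99.5% of tested genes had a value. The corrected fit removed each library's spline trend on GC content and log2 length (5 and 3 degrees of freedom, with their product). The fits were tested on simulated data. The members, lists and tests were chosen with earlier results of these data known. Named genes are the 7 members, VCPIP1, up to 4 called genes of largest change per list with the exceptions to its direction, and the 3 nearest profiles for 4 members. Markers, and exceptions within lists, were picked after their values were seen. Alternatives covered the pseudocount, the filter, 2 scalings, GC and length correction, array weights, a replicate block and each library left out.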

Additional observations from a re-analysis of the deposited data

How the results depend on the processing

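The members' changes and the counts of genes were recomputed under 15 alternatives, the paralog differences under 11 and the shares and ratios under 8 (quantile normalization, the replicate block and each library left out). YAP1 and VGLL4 were called lower in all 15 alternatives, between -3.78 and -1.18 and between -2.31 and -0.35. The YAP1 minus WWTR1 change kept its sign in all 11 of its alternatives, between -1.78 and -0.54. WWTR1 was 0.35 after GC and length correction and 0.91 with that correction and a pseudocount of 0.1 TPM. Scaled by median of ratios, TEAD2 was 0.84 and TEAD3 0.33, and quantile-normalized they were 0.97 and 0.65. Quantile normalization also gave a TEAD4 share change of -1.65 percentage points, a TEAD2 minus TEAD4 change of 0.45 and a TEAD3 minus TEAD4 change of 0.13. GC and length correction gave 0.13 for TEAD1 minus TEAD2 and 0.61 for TEAD1 minus TEAD3, and 0.73 for the latter with the median over basic transcripts. The cause of these reversals was not tested. Genes called lower numbered 4258 after quantile normalization, 3463 after GC and length correction, 3386 with a pseudocount of 0.1 TPM as well and 3415 with the median over basic transcripts. Genes called higher numbered 4416 after median-of-ratios scaling, 4625 after quantile normalization, and 4061, 3933 and 4110 after those 3 corrections, against 1646. The alternatives with a pseudocount of 0.1 TPM under correction, and with the median over basic transcripts, were chosen after seeing the data. Array weights, whose estimation stopped before it converged, called TEAD2 lower (-0.56).

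Whether same-numbered libraries form pairs is not stated in the sources used here. Deviations of same-numbered libraries from their group means correlated across genes at 0.53, -0.27 and 0.16, and not every library correlated best with its own number. With 3 libraries per group these correlations cannot decide if the libraries are paired. The replicate block gave 7085 genes lower and 1586 higher, against 7241 and 1646, and changed the call of none of the 7 members in limma. As paired differences, the TEAD4 share changed by 10.6 percentage points, the YAP1 share by -30.4 and the YAP1 minus WWTR1 difference by -1.55 (exact sign-flip p = 0.25, the smallest that 3 pairs allow). What depth limits is unknown, since TPM carries no read numbers. TEAD1 was under 1 TPM in all 3 siVCPIP1 libraries.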
